A study of Mus musculus with 32 samples.

Results

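The 4 glutamate and GABA synapse genes described here are Dlg4, Homer3, Grin1 and Gabbr1, followed in the prefrontal cortex of mice bred for severe or mild ethanol withdrawal. They were taken by the titles of the array's spots, leaving out titles that name only an expressed sequence tag (EST, a partial cDNA read), and each gene had 1 spot. That made 4 of 4696 gene spots, of which 1160 carried a title that was not an EST. All 4 passed the filter for the tests, which kept 2084 spots, 452 of them with such a title.

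The withdrawal seizure-prone mice (WSP) and the withdrawal seizure-resistant mice (WSR) were selected from genetically heterogeneous HS/Ibg stock, each as 2 separately bred lines (WSP-2 and WSP-1, WSR-2 and WSR-1). Ethanol (EtOH) groups were drug-naive adults kept in vapor chambers for 72 hours and studied after 21 days of abstinence. An injected loading dose of 1.5 g/kg ethanol preceded the vapor in WSP-1, WSR-1 and WSR-2, and WSP-2 mice were given a larger dose to bring blood ethanol to a similar concentration. Air groups sat in air chambers and received no ethanol. Every mouse of both treatments received pyrazole, an inhibitor of alcohol dehydrogenase, at 68.1 mg/kg. The 8 groups were Male WSP EtOH, Male WSP Air, Male WSR EtOH, Male WSR Air, Female WSP EtOH, Female WSP Air, Female WSR EtOH and Female WSR Air. Each group had 4 single-channel arrays, and each array carried labelled RNA pooled from 2 mice. Replicates 1 and 2 of a group were pools of the first breeding line and replicates 3 and 4 pools of the second. The p-values below therefore reflect how pools vary, and 2 pools from the same breeding line do not sample the selection independently.

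Grin1 encodes the subunit that every NMDA receptor needs, a glutamate-gated calcium-permeable channel of excitatory synapses that ethanol inhibits acutely. Gabbr1 encodes a subunit of the GABA-B receptor, a G protein-coupled receptor that mediates slow inhibition before and after the synapse. Dlg4 encodes a scaffold of the postsynaptic density that holds NMDA receptors in place. Homer3 belongs to the Homer scaffolds, which tie metabotropic glutamate receptors to intracellular calcium stores and to other postsynaptic scaffolds. The titles in the array files were "glutamate receptor, ionotropic, NMDA1 (zeta 1)" for Grin1, "GABA-B1a receptor" for Gabbr1, "discs, large homolog 4" for Dlg4 and "homer, neuronal immediate early gene, 3" for Homer3. The clones behind the spots could not be matched to the RefSeq gene table by accession (0 of 4), so each identity rests on its title.

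The promoters of Homer3 and Grin1 are shown because these were the 2 spots called between WSP and WSR males. Each run holds 250 bases before and 50 bases after the start listed by RefSeq on GRCm38.p6. Capitals mark the GC box GGGCGG on either strand, the core of a site that Sp-family factors can bind. Homer3 is read from the plus strand of chr8:70282749-70283048 and Grin1 from the minus strand of chr2:25319138-25319437.
Homer3: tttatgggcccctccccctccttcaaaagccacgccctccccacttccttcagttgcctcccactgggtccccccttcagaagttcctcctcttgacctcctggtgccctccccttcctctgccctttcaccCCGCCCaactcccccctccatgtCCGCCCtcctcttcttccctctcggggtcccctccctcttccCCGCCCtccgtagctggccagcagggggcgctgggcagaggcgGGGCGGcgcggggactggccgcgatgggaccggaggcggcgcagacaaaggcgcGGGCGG
Grin1: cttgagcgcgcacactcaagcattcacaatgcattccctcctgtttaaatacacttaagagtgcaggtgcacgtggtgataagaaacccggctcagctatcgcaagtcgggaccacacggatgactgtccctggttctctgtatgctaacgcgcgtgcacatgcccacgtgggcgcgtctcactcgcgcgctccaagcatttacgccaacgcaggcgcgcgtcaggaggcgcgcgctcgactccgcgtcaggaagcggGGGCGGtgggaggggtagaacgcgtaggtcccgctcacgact
The Homer3 window held 5 GC boxes at 69.7% G and C, and the Grin1 window held 1 at 60.7%. The Gabbr1 window on chromosome 17 held 3, and the 3 starts listed for Dlg4 on chromosome 11 held 0, 0 and 2. Of 32851 promoters of this length, 35.7% held the GC box, and their median G and C content was 52.7%. A TATA box (TATAAA, found in 13.6% of promoters) and a cAMP response element (TGACGTCA, 1.79%) were searched on both strands too, and these letters were not in any of the 6 windows. The array gave no measurement of promoter activity.

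Arrays differed in brightness by line in males. Counting gene spots that reached 2 times background, male WSP arrays had 518 to 604 and male WSR arrays 1682 to 2040 of 4696, and female arrays had 588 to 1428. Each array had its own background intensity (6.96 to 30.3 units). Levels are given below as intensity over that background, and comparisons use log2 intensity after background correction and quantile normalization, which gives all arrays the same distribution. A spot counted as called where the adjusted p of limma was under 0.05 over all 2084 spots. A spot under 2 times background was taken as not well above background, so its level there is only an upper bound. The array carried 0 spots of the fixed neuron and microglia markers. Of 6 kept markers of astrocytes, oligodendrocytes, endothelium, choroid plexus and blood, 0 were called in any EtOH minus Air comparison, and in males 3 were called higher and 2 lower in WSP than in WSR. For the EtOH response of WSP minus WSR, 1 was called, the endothelial marker endoglin (0.74, adjusted p = 0.040). The part of the brightness and marker differences in the results below was not tested. With 4 arrays a group, the number of arrays sets the precision of each value.

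The Gabbr1 spot was measured in nearly every array, and the other 3 spots depended on the group. Gabbr1 reached 2 times background on 31 of 32 arrays, and Dlg4 did so on 18. Homer3 reached it on 9 arrays, all 8 male WSR arrays and Female WSP Air replicate 3. Grin1 reached it on 8 arrays, which were the 8 male WSR arrays. Of all kept spots, 23.8% reached 2 times background on at least 31 arrays, 12.1% on the 8 male WSR arrays and no other, and 38.6% on all 8 male WSR arrays and 0 male WSP arrays. Dlg4, Homer3 and Grin1 shared the last pattern, which was therefore common on this array.

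**Figure D1:**
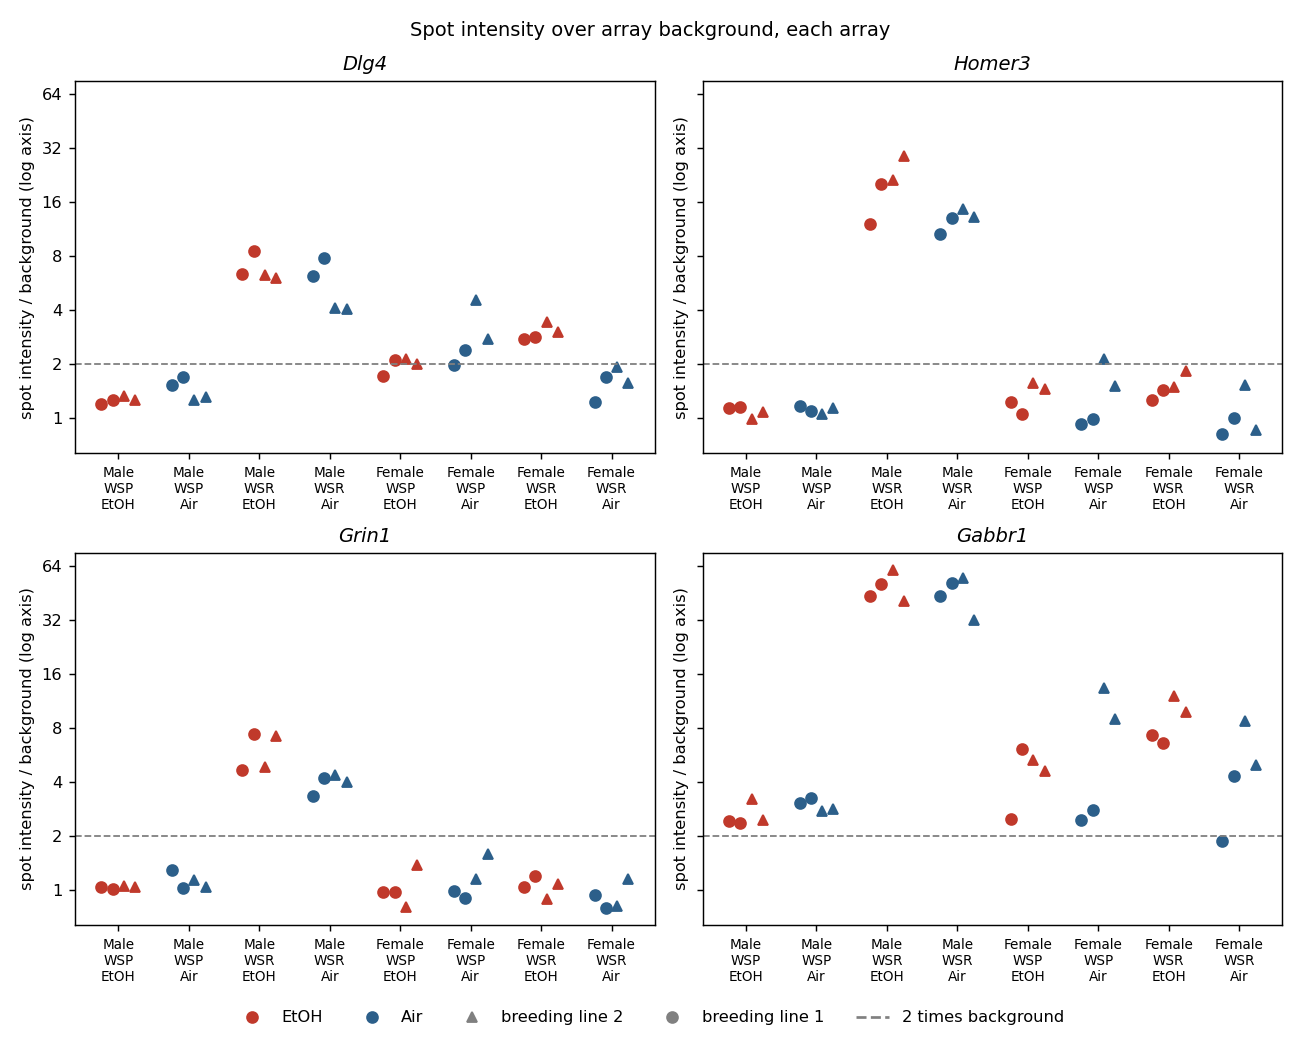
Spot intensity over background on a log axis for each of the 32 arrays, by group, with EtOH in red, Air in blue, triangles for the second breeding line and circles for the first. Grin1 and Homer3 lie above the dashed line at 2 times background in all 8 male WSR arrays and in at most 1 other array, while Gabbr1 lies above it on 31 arrays.

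Grin1 intensity was 4.66, 7.39, 4.83 and 7.24 times background in the Male WSR EtOH arrays, against 3.33, 4.22, 4.36 and 4.00 in the Male WSR Air arrays. All 4 EtOH arrays were above all 4 Air arrays on this unscaled measure, as for 8.3% of all kept spots. On the normalized log2 scale the values were 6.13, 6.21, 6.08 and 6.19 with EtOH and 6.07, 6.07, 6.08 and 6.13 with Air, and these overlapped. The difference of 0.06 ± 0.06 (log2, SE, n = 4 each) did not pass (limma adjusted p = 1.00). With each array scaled to its median instead, it was 0.31 and passed (adjusted p = 0.021), where the median of all kept spots was itself 0.18 higher with EtOH. That scaling called 143 of 2084 spots. In the other 6 groups Grin1 lay between 0.79 and 1.59 times background, at a level this array could not tell from background. Its EtOH minus Air difference there was -0.11 ± 0.06 in Male WSP, and in females it was -0.02 ± 0.06 in WSP and -0.01 ± 0.06 in WSR (log2, SE), and 0 of these 3 passed.

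Gabbr1 was brightest over background in male WSR mice. Its intensity was 43.8, 51.1, 61.2 and 41.2 times background in Male WSR EtOH arrays, against 43.5, 51.8, 55.0 and 32.2 in Male WSR Air arrays. Male WSP EtOH arrays gave 2.44, 2.35, 3.21 and 2.46, against 3.07, 3.27, 2.76 and 2.83 in Male WSP Air arrays. Treatment groups overlapped in both lines.
In females the spread was wider. Female WSP EtOH arrays gave 2.48, 6.12, 5.32 and 4.60 times background, against 2.46, 2.80, 13.4 and 9.04 in Female WSP Air arrays. Female WSR EtOH arrays gave 7.30, 6.65, 12.0 and 9.88, against 1.88, 4.30, 8.76 and 4.99 in Female WSR Air arrays, where replicate 1 was the single array of the study below 2 times background. The normalized EtOH minus Air difference of Gabbr1 was -0.02 ± 0.19 in Male WSP, -0.29 ± 0.19 in Male WSR, 0.22 ± 0.19 in Female WSP and 0.27 ± 0.19 in Female WSR (log2, SE). None passed limma, with adjusted p from 0.57 to 1.00. Leaving out replicate 1 lowered the difference to 0.09 in Female WSP and 0.07 in Female WSR, leaving out replicate 2 gave 0.10 in Female WSP, and leaving out replicates 3 or 4 in turn gave up to 0.37 in Female WSP and 0.39 in Female WSR. Median scaling turned Female WSP to -0.28, where the median of all kept spots moved by -0.12. The response in males minus that in females was -0.40 ± 0.19 (log2, SE) and did not pass (limma adjusted p = 0.81).

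Dlg4 separated by treatment in Female WSR mice without passing the test over all spots. Its intensity was 2.77, 2.85, 3.46 and 3.02 times background in Female WSR EtOH arrays, against 1.24, 1.69, 1.92 and 1.56 in Female WSR Air arrays. All 4 EtOH arrays were at 2 times background and 0 of the 4 Air arrays were. Normalized log2 values were 6.56, 6.49, 6.58 and 6.49 with EtOH and 6.002, 6.10, 6.35 and 6.12 with Air, so the groups did not overlap, as for 5.37% of all kept spots in this comparison. The spot stood between the 83.6th and 84.6th percentile of gene spots in EtOH arrays, against the 71.9th to 81.8th in Air arrays. The fitted difference was 0.39 ± 0.11 on the log2 scale (95% interval 0.16 to 0.62), and against the detection floor of the Air arrays the EtOH arrays were at least 1.13-fold higher. Over all spots the limma adjusted p was 0.27, so the spot was not called. Under the 17 alternatives run the difference kept its sign, and its adjusted p lay between 0.13 and 0.57. More gene spots reached 2 times background in Female WSR EtOH arrays (940 to 1095) than in Female WSR Air arrays (783 to 922), and the part of this in the Dlg4 difference was not tested. In RNA of whole tissue, fewer cells of a type and less RNA per cell cannot be told apart.

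In the other groups Dlg4 showed no such separation. Female WSP EtOH arrays gave 1.71, 2.11, 2.14 and 2.01 times background, against 1.97, 2.39, 4.54 and 2.77 in Female WSP Air arrays. Male WSP EtOH arrays gave 1.20, 1.27, 1.34 and 1.26, against 1.54, 1.69, 1.27 and 1.32 in Male WSP Air arrays, all under 2 times background. Male WSR EtOH arrays gave 6.39, 8.54, 6.32 and 6.05, against 6.19, 7.86, 4.12 and 4.06 in Male WSR Air arrays. The treatment groups overlapped in all of these. The normalized difference was -0.02 ± 0.11 in Female WSP, -0.18 ± 0.11 in Male WSP and -0.004 ± 0.11 in Male WSR (log2, SE), with adjusted p from 0.75 to 1.00. The EtOH response of Dlg4 in WSP minus that in WSR was -0.29 ± 0.11 (log2, SE), which did not pass over all spots (limma adjusted p = 0.24). It passed with median scaling (-0.37, adjusted p = 0.0092, where the median of all spots moved by -0.20) and in the authors' deposited score table (-0.73 score units, adjusted p = 0.049). The endothelial marker endoglin was called in this same comparison, and its part in the Dlg4 value was not tested. Under the 15 alternatives run the adjusted p lay between 0.0092 and 0.64. The response in males minus that in females was -0.28 ± 0.11 (limma adjusted p = 0.81).

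Homer3 intensity was 12.1, 20.3, 21.3 and 29.1 times background in Male WSR EtOH arrays, against 10.6, 13.0, 14.7 and 13.2 in Male WSR Air arrays. Replicate 1 of the EtOH group fell among the Air arrays, and the other 3 lay above them. The normalized difference was 0.10 ± 0.09 (log2, SE, limma adjusted p = 1.00). Male WSP EtOH arrays gave 1.15, 1.16, 0.98 and 1.08, against 1.17, 1.10, 1.05 and 1.14 in Male WSP Air arrays. Female arrays lay between 0.81 and 2.14, with EtOH minus Air differences of 0.09 ± 0.09 in WSP and 0.10 ± 0.09 in WSR that did not pass.

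Counted over the groups, 0 of the 4 spots were called for EtOH minus Air in any of the 4 sex and line groups. Of all 2084 spots, 0.048% were called in Male WSP, 0% in Male WSR, 0.384% in Female WSP and 0.048% in Female WSR. Over all groups 0 of 4 were called (0% of all spots, 98 of 2084 at an unadjusted p under 0.05). For the difference of response between lines it was 0 of 4 (0.24% of all spots) and between sexes 0 of 4 (0% of all spots, 122 of 2084 at an unadjusted p under 0.05). In Male WSR, 64 spots had an unadjusted p under 0.05, and none of them was a member. The mean EtOH minus Air difference over the 4 groups was 0.05 ± 0.06 for Dlg4, 0.07 ± 0.05 for Homer3, -0.02 ± 0.03 for Grin1 and 0.04 ± 0.10 for Gabbr1 (log2, SE).

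**Figure D2:**
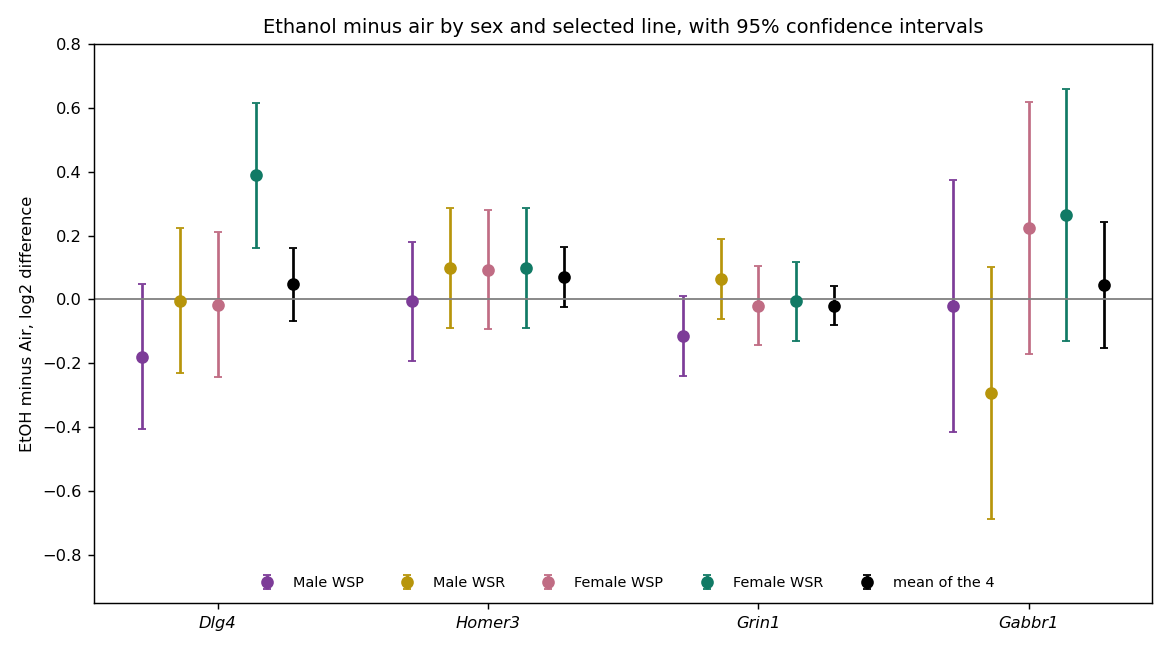
EtOH minus Air difference of normalized log2 intensity for each spot, by sex and line and as the mean of the 4 groups, with 95% confidence intervals from the fit (4 EtOH and 4 Air arrays in each group). The interval of Dlg4 in Female WSR (0.16 to 0.62) lies apart from 0 before adjustment for 2084 spots, and Gabbr1 has the widest intervals.

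Homer3 and Grin1 were well above background in WSR males and not in WSP males. Both passed the filter for the tests through the male WSR arrays, which made up 8 of the 8 arrays at 2 times background for Grin1 and 8 of 9 for Homer3. Their fitted line differences are therefore given as a description of a spot near background in WSP, and not as support for a size. Homer3 was at 0.98 to 1.17 times background in the 8 male WSP arrays, against 10.6 to 29.1 in the 8 male WSR arrays. Normalized Homer3 values lay between 5.74 and 5.98 (median 5.89) in male WSP and between 6.49 and 6.87 (median 6.59) in male WSR, with no overlap, as for 32.4% of all kept spots. The fitted difference was -0.73 ± 0.06 (log2, SE, n = 8 each, limma adjusted p = 4.58e-11). Grin1 was at 1.01 to 1.30 times background in male WSP, against 3.33 to 7.39 in male WSR. Normalized Grin1 values lay between 5.75 and 6.09 in male WSP and between 6.07 and 6.21 in male WSR, where Male WSP Air replicate 1 overlapped the WSR arrays. The fitted difference was -0.28 ± 0.04 (adjusted p = 1.48e-06). With no filter, over all 4696 gene spots, the limma adjusted p was 7.26e-11 for Homer3 and 1.01e-05 for Grin1. The male WSP intensities are the same without the filter, so these p-values have the same limit and add no support. Because neither spot was well above background in male WSP, and the floor set by spots at 2 times background was above both means after quantile normalization, no fold is given.

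These 2 of 4 members called in males, both lower in WSP, stood beside 58.3% of all kept spots called in either direction and 34% called lower in WSP. Nothing is read from the members' count, because the filter admitted both through male WSR. Dlg4 differed by 0.07 ± 0.08 (adjusted p = 0.44) and Gabbr1 by -0.18 ± 0.14 (adjusted p = 0.27) in males. In females 0 of 4 were called, against 12.1% of all spots, with differences of 0.01 ± 0.08 for Dlg4, -0.02 ± 0.06 for Homer3, -0.02 ± 0.04 for Grin1 and -0.08 ± 0.14 for Gabbr1 (log2, SE). Over both sexes Homer3 (-0.37 ± 0.05, adjusted p = 6.68e-08) and Grin1 (-0.15 ± 0.03, adjusted p = 1.36e-04) were called, beside 54.4% of all spots, 32% lower in WSP. The line difference in males minus that in females was -0.70 ± 0.09 for Homer3 (adjusted p = 2.12e-07) and -0.26 ± 0.06 for Grin1 (adjusted p = 5.83e-04). These 2 of 4 stood beside 53.1% of all spots, and the same limit of the filter holds, since Grin1 reached 2 times background on 0 and Homer3 on 1 of the 24 arrays outside male WSR.

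The direction for Homer3 and Grin1 in males was the same under each alternative that gave a value, and both stayed called. The alternatives reused the same male WSP intensities near background, so this sameness adds no support. For the other 2 spots the scaling decided the result. Dlg4 in males was 0.28 with cyclic loess and passed, -0.83 with median scaling and passed, and -1.06 score units in the authors' deposited table, so its direction depended on the scaling. Gabbr1 in males was -0.56 with cyclic loess, -2.85 with median scaling and -1.93 score units in the authors' table, and passed in all of these. Median scaling moved the median of all kept spots by -0.69 in this comparison. Of 2084 spots, 1335 were called with cyclic loess and 1805 with median scaling, and 1038 of 1692 in the authors' table. Before any scaling, mean log2 intensity over background in male WSP minus male WSR was -2.15 for Dlg4, -3.85 for Homer3, -2.17 for Grin1 and -4.07 for Gabbr1, and the median of all kept spots was -1.95. Of all kept spots, 47.4% had a lower difference than Dlg4, 12.8% than Homer3, 47.1% than Grin1 and 10.1% than Gabbr1. In females these unscaled differences were 0.10, 0.09, 0.13 and -0.34 in the same order of genes, and the median of all kept spots was 0.03.

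**Figure D3:**
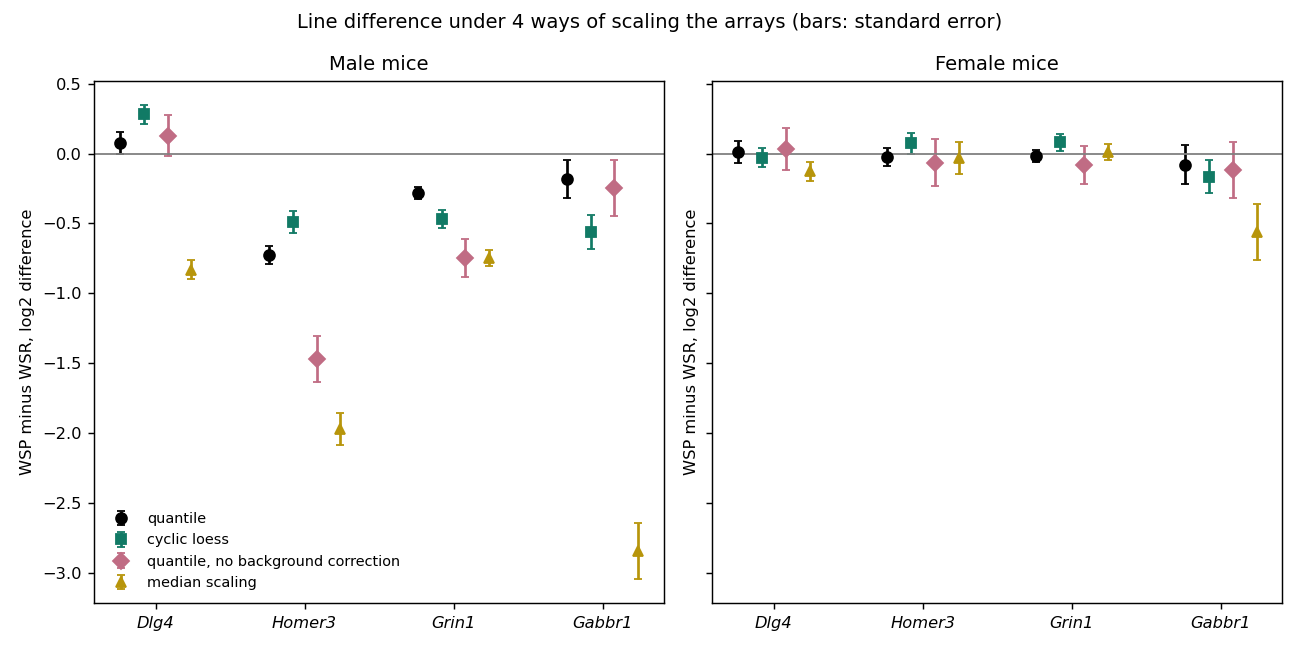
WSP minus WSR difference in log2 intensity with its standard error for each spot, in males (left) and females (right), under 4 ways of scaling (8 WSP and 8 WSR arrays in each sex). Homer3 and Grin1 lie below 0 in males under all 4, while Dlg4 is at 0.07 with quantile normalization and at -0.83 with median scaling.

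Rank within each array is not changed by scaling an array as a whole. Homer3 stood at a mean percentile of 84.8 ± 1.1 among gene spots in male WSR and Grin1 at 76.7 ± 1.7 (SD, n = 8). In male WSP, where both were not well above background, their ranks carry no order among dim spots and scattered from the 27.2nd to the 70.9th percentile for Homer3 and from the 30.4th to the 75.9th for Grin1. Dlg4, also under 2 times background in male WSP, stood at 80.1 ± 3.2 there and 79.0 ± 2.4 in male WSR (SD, n = 8 each), and Gabbr1 at 90.0 ± 0.4 in male WSP and 90.6 ± 1.3 in male WSR. In females, where Homer3 and Grin1 were near background, their ranks scattered from the 13.2nd to the 77.4th percentile for Homer3 and from the 5.4th to the 67.6th for Grin1. Gabbr1 kept to the 82.4th to 90.5th percentile in females.

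**Figure D4:**
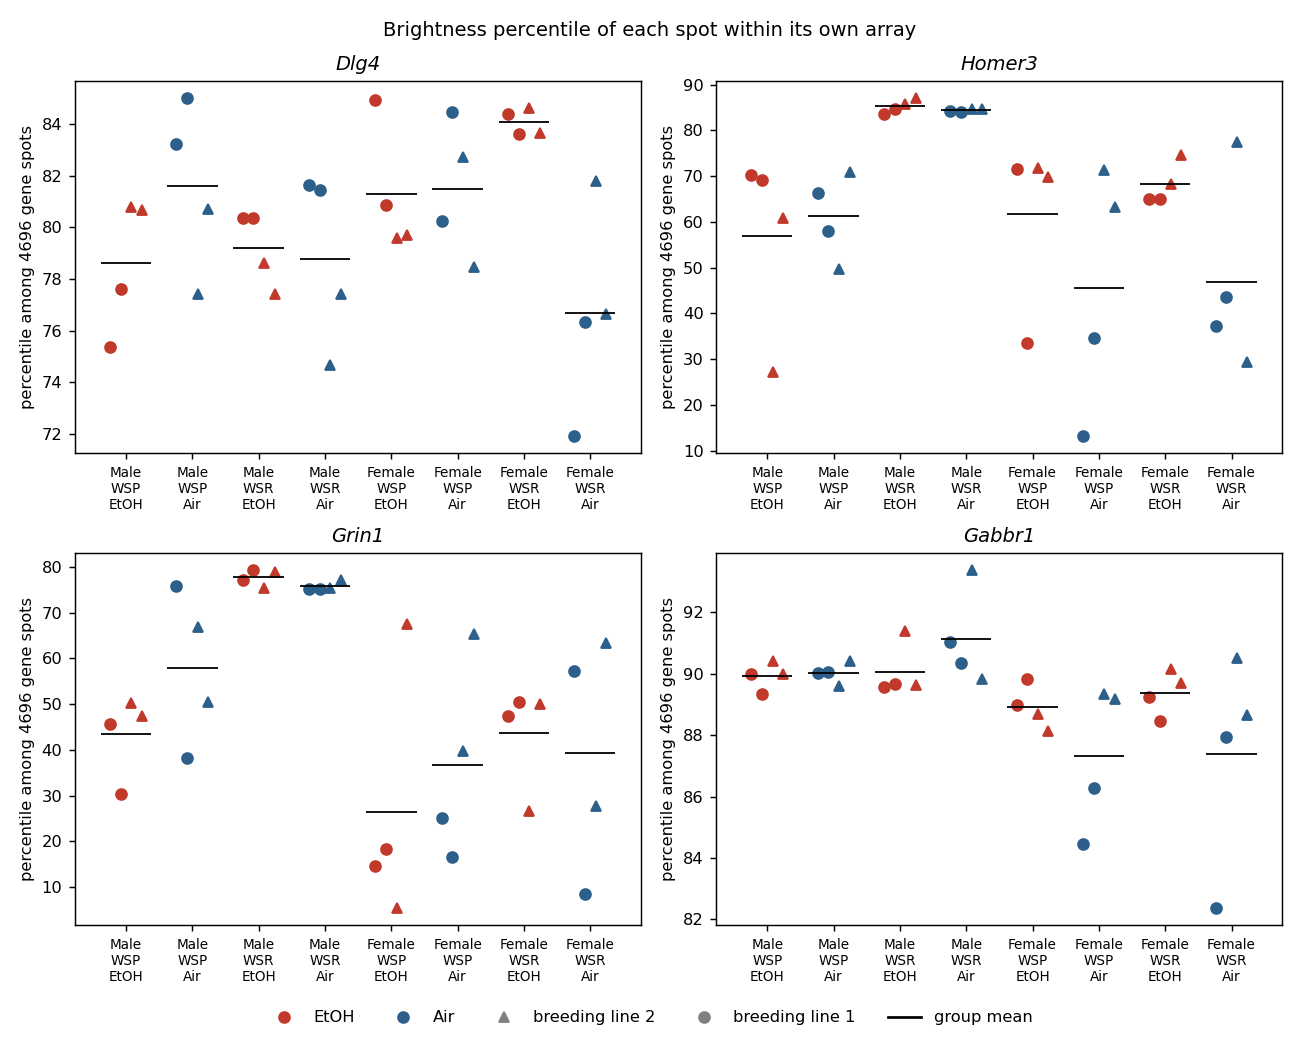
Percentile of each spot among the 4696 gene spots of its own array, by group, with group means as black lines, EtOH in red and Air in blue (vertical scales differ between panels). Homer3 and Grin1 are tightly placed in the 8 male WSR arrays and scattered elsewhere, and Dlg4 EtOH arrays lie above Air arrays in Female WSR.

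Across the 4 breeding lines the spots were compared within each selection, over both sexes and treatments. WSP-2 minus WSP-1 was -0.13 ± 0.07 for Dlg4, 0.04 ± 0.06 for Homer3, 0.05 ± 0.05 for Grin1 and 0.13 ± 0.12 for Gabbr1 (log2, SE, n = 8 each). None of the 4 was called (0% of all spots, 225 of 2084 at an unadjusted p under 0.05). WSR-2 minus WSR-1 was 0.35 ± 0.12 for Gabbr1 (limma adjusted p = 0.20), 0.14 ± 0.06 for Homer3 (adjusted p = 0.32), -0.03 ± 0.07 for Dlg4 and 0.003 ± 0.05 for Grin1. Again 0 of 4 were called, beside 0.048% of all spots. With median scaling Gabbr1 (0.56, adjusted p = 0.0077) and Homer3 (0.37, adjusted p = 0.0073) passed in WSR. Median scaling called 447 of 2084 spots in this comparison, and Homer3 was under 2 times background on all 8 female WSR arrays. Leaving out 1 replicate number moved the Gabbr1 difference between 0.10 and 0.60. Mean normalized Gabbr1 was 7.30 ± 0.17 in WSP-2, 7.18 ± 0.33 in WSP-1, 7.54 ± 0.39 in WSR-2 and 7.19 ± 0.39 in WSR-1 (log2, SD, n = 8 each). These SDs also hold the differences between sexes and treatments. With those fitted, the 95% interval for Gabbr1 in WSR-2 minus WSR-1 was 0.10 to 0.59 before adjustment, and the spot was not called.

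The EtOH response of each breeding line rests on 2 EtOH and 2 Air arrays in each sex, and this comparison was chosen after the data were seen. The Dlg4 difference in Female WSR had the same sign in both lines, 0.31 ± 0.14 in WSR-2 and 0.47 ± 0.14 in WSR-1 (log2, SE). The difference between these lines was -0.16 ± 0.19, and 0 of 4 members were called for it, beside 0.144% of all spots. For Gabbr1 in Female WSP the lines went opposite ways. The EtOH arrays of WSP-2 had normalized values of 7.13 and 7.03, against 7.26 and 7.23 in Air, while those of WSP-1 had 7.19 and 7.37, against 6.57 and 6.77 in Air. The differences were -0.17 ± 0.24 in WSP-2 and 0.62 ± 0.24 in WSP-1. The difference between them was -0.78 ± 0.33 (limma adjusted p = 0.40), and 0 of 4 members were called beside 0.624% of all spots. Dlg4 in Male WSP was 0.07 ± 0.14 in WSP-2 and -0.43 ± 0.14 in WSP-1, a difference of 0.50 ± 0.19 (limma adjusted p = 0.67, 0 of 4 called beside 0% of all spots). All 8 male WSP arrays had Dlg4 under 2 times background (1.20 to 1.69), so these differences compare levels known only as upper bounds. The ethanol injection of WSP-2 was larger than that of WSP-1, so dose and breeding line cannot be told apart here.

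**Figure D5:**
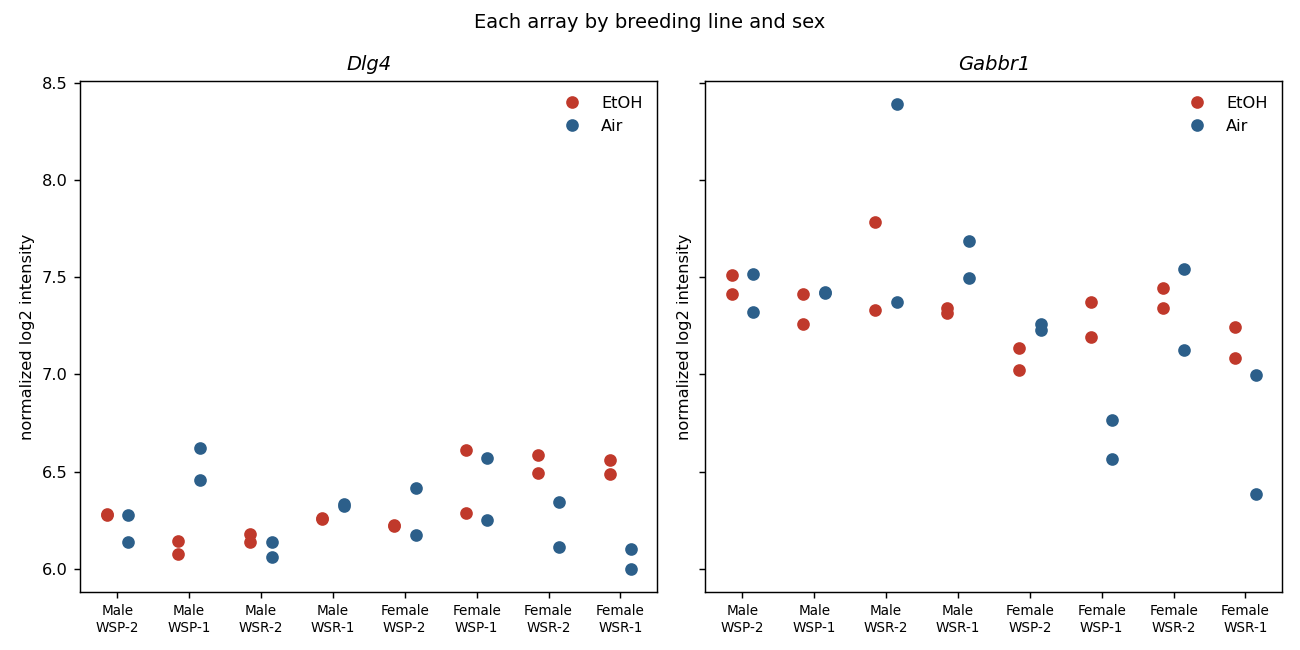
Normalized log2 intensity of Dlg4 (left) and Gabbr1 (right) on each array, by sex and breeding line, with EtOH in red and Air in blue (2 arrays each). Dlg4 EtOH arrays lie above the Air arrays in both Female WSR-2 and Female WSR-1, while Gabbr1 EtOH arrays lie below Air in Female WSP-2 and above Air in Female WSP-1.

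The array held few other genes of these synapses. Of the fixed list of receptors, scaffolds, transporters, enzymes and kinases, 8 spots were present and 5 were kept, the 4 members and glutamine synthetase. There were 0 spots of AMPA, kainate, delta or metabotropic glutamate receptors, of GABA-A subunits or of the kinases. Glutamine synthetase, the astrocyte enzyme that turns glutamate into glutamine, was not called in any of the 13 comparisons. Its EtOH minus Air difference was 0.34 ± 0.15 in Male WSR (log2, SE, limma adjusted p = 1.00).

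Likeness was described by Spearman's rho of normalized values over the 32 arrays, against 451 other titled spots. All points share the arrays' brightness, and male WSR arrays stand apart, so rho over the 24 other arrays is given beside it. Grin1 was most like forkhead box G1, a transcription factor of the forebrain (0.88, and 0.73 without male WSR). Homer3 was most like heat shock 10 kDa protein 1, a mitochondrial chaperonin (0.87 and 0.69). Gabbr1 was most like microtubule-associated protein 6 (0.69 and 0.60), and Dlg4 most like an immunoglobulin gamma constant region (0.64 and 0.61). Among the members, Homer3 and Grin1 had a rho of 0.52 over 32 arrays and -0.08 over 24. A spot next to the member on the membrane was brighter on 32 arrays for Dlg4 and Gabbr1, on 30 for Homer3 and on 25 for Grin1. Among the 8 male WSR arrays this held on 8 for Dlg4 and Gabbr1, on 6 for Homer3 and on 1 for Grin1. The part of neighbouring spots in these values was not tested.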

How the data were processed

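Per the labels, RNA from prefrontal cortex was labelled with 33P by reverse transcription and hybridised to 32 single-channel arrays. The authors deposited 1 spot intensity and 1 background intensity per row, with background not subtracted. Which platform and scanner were used is not stated there. The authors' deposited score of a spot equals 8 plus 2 times its standardised log2 intensity on its own array, tested on the files. Within an array its direction is therefore that of intensity. Between arrays it also depends on the mean and spread of each array.

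Intensities were corrected with normexp (offset 50), moved to log2 and quantile normalized over 4696 gene spots. Differences of dim spots are compressed by the offset. The tests took the 2084 spots that reached 2 times background on 4 or more arrays. Group means were compared in limma 3.58.1 (R 4.3.3), with an intensity trend and Benjamini-Hochberg adjustment (24 residual degrees of freedom). Breeding lines were compared with 16 cells of sex, breeding line and treatment. On simulated data for EtOH minus Air in Female WSR (2084 spots), 69% of shifts of 0.5 and 98% of shifts of 1 log2 unit were recovered. Many spots were shifted at once there, with independent normal noise and no breeding line differences. In the real comparison 0.048% of spots were called, so these shares do not give the power for a single member.

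Members, lists and tests were chosen with earlier results of these data known. Named beyond the members were list spots kept for the tests and the titled spots with the highest rho. The alternatives were other scalings, filters, blocks, weights and arrays left out, and the authors' table. Same-numbered EtOH and Air arrays correlated between -0.10 and 0.41 in their deviations (5 of 16 over 0.1). The highest values were 0.40 and 0.41, in replicates 1 and 4 of Male WSR. Same numbers share a breeding line, so these correlations cannot decide whether arrays were paired. Numbers were not taken as pairs in the main fit, and a replicate block was run as an alternative.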

Additional observations from a re-analysis of the deposited data

Results flagged for a closer look

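In groups of 4 arrays, 7 of 32 combinations of spot and group had an array far from the other 3 by Dixon's criterion at the 95% level, where chance gives about 1 in 20. Values are normalized log2 intensities. The array farthest off was the highest of its group for Dlg4 in Female WSP EtOH replicate 1 (6.61, next 6.29), Homer3 in Female WSR Air replicate 3 (6.14, next 5.78), Grin1 in Female WSP EtOH replicate 4 (5.94, next 5.72), Grin1 in Male WSR Air replicate 4 (6.13, next 6.08) and Gabbr1 in Male WSR EtOH replicate 3 (7.78, next 7.34). It was the lowest of its group for Homer3 in Female WSP EtOH replicate 2 (5.75, next 5.97) and Grin1 in Female WSR EtOH replicate 3 (5.74, next 5.80). For Homer3 and Grin1 the 4 female cases concern arrays under 2 times background, and so does the Dlg4 case (1.71 times background).

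The fitted WSP minus WSR difference in males minus that in females was below 0 for Homer3 (-0.70, limma adjusted p = 2.12e-07) and for Grin1 (-0.26, limma adjusted p = 5.83e-04), as 53.1% of all kept spots also differed between the sexes in this comparison. Male WSP arrays had the fewest gene spots at 2 times background and male WSR arrays the most. Both spots passed the filter for the tests through the male WSR arrays and were near background elsewhere, so these values describe where the spots were detected and support no size of a sex difference. The part of array brightness in these differences was not tested.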

How the results depend on the processing

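Of 793 values of single spots under the alternatives, 712 kept direction and side of the threshold, 58 changed sign without passing, 17 newly passed, 0 stopped passing and 6 passed with the opposite sign. Those 6 were Dlg4 for WSP minus WSR. With median scaling it was -0.83 in males, -0.48 over both sexes and -0.70 for males minus females, and in the authors' table -1.06, -0.52 and -1.07 score units. The number of members called changed as follows. With median scaling it was 1 for EtOH minus Air in Male WSR, 1 for the EtOH response of WSP minus WSR, 1 for WSP minus WSR in females (Gabbr1, -0.56, adjusted p = 0.030), 4 in males, 4 over both sexes, 4 for males minus females and 2 for WSR-2 minus WSR-1. In that order, median scaling called 143, 570, 759, 1805, 1749, 1614 and 447 of all 2084 kept spots. With cyclic loess it was 4 in males, 4 over both sexes and 3 for males minus females. Cyclic loess called 1335 of all 2084 kept spots in males and 1187 over both sexes. For males minus females the main fit called 1106 of 2084 spots. The alternatives there ranged from 916 (authors' scores) to 1614 (median scaling). With the authors' scores it was 3 of 3 testable members for these 3 line comparisons, and for the EtOH response of WSP minus WSR it was 1 of 3. Of 1692 spots tested on scores, 1038 were called in males, 1186 over both sexes and 916 for males minus females. For the EtOH response of WSP minus WSR 57 of 1692 were called. Nothing is read from the members' counts, and the cause of their changes was not tested. Leaving out each replicate number left the member counts between 0 and 0 for each EtOH and breeding line comparison and for the female line comparison, and between 2 and 2 for the other line comparisons. With the replicate block the difference of Dlg4 in Female WSR had an adjusted p of 0.20 (0.39 ± 0.11), and no member's call changed.

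Over all kept spots, counts of called spots moved by over 1.5 times in some settings: 8 for EtOH minus Air in Female WSP (0 to 148), 1 in Female WSR (0 to 2), 1 in Male WSP (0 to 7), 0 in Male WSR (0 to 143), 5 for the EtOH response between lines (0 to 570), 252 for WSP minus WSR in females (129 to 759), 1134 over both sexes (960 to 1749), 0 for WSP-2 minus WSP-1 (0 to 243) and 1 for WSR-2 minus WSR-1 (0 to 447). The highest count came from median scaling except in Female WSR (without replicate 1) and Male WSP (array weights). Signal near background limits Grin1 and Homer3 outside male WSR, and Dlg4 in Male WSP and Female WSR Air. Leaving out Male WSR Air replicate 3, an alternative added after seeing the data, changed no member's call.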
